A study of Mus musculus with 6 samples.

Results

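A set of 7 genes, of transcription factors that give intestinal epithelium its identity (Cdx1, Cdx2, Hnf4a, Hnf4g, Isx, Gata4 and Gata6), was followed across 6 mouse colon tumours. They were taken by name, among genes whose probe sets carry exactly 1 gene symbol in the platform annotation, and 7 of 7 were found among the 19938 genes measured, each with 1 probe set. The 3 hypomethylated tumours had the genotype Dnmt1chip/c; ApcMin/+, with a hypomorphic and a knockout allele of Dnmt1, the gene of the maintenance DNA methyltransferase. The 3 control tumours were Dnmt1chip/+; ApcMin/+, so they carried the hypomorphic allele as well, beside a wild-type one. All mice had the ApcMin mutation, which starts intestinal tumours, a mixed C57BL/6 and 129Sv4 background, and dextran sodium sulfate, a colon irritant, at 2% from 6 weeks of age. Tumours were taken at 20 weeks. The Dnmt1 alleles are not described as restricted to any cell type, and which cells of a tumour carried them was not examined. The sample descriptions give 1 shared number to all 3 hypomethylated tumours and another to 2 of the 3 control tumours. If that number marks a mouse, the groups do not hold 3 mice each. The p-values below measure the spread between these tumours, and mouse and genotype cannot be told apart.

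CDX1 and CDX2 are homeobox proteins that set the intestinal as against the gastric character of gut epithelium, and CDX2 also switches on genes of mature enterocytes and goblet cells. HNF4A and HNF4G are paired nuclear receptors that bind many enhancers of absorptive cells and drive brush border and lipid genes. ISX is an intestine-specific homeobox protein that holds back carotenoid and lipid uptake and acts downstream of CDX2. GATA4 and GATA6 are zinc finger factors of endoderm. GATA4 marks the proximal small intestine, whereas GATA6 is made along the whole gut, colon included, and also in smooth muscle.

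The deposited numbers were read as log2 (no label gives the base), and each probe set is centred on its median over the 6 tumours. They therefore carry differences between tumours and no level, so that neither the 7 genes nor the tissue's defining markers could be ranked by abundance. Where all hypomethylated tumours lie above all control tumours, the zero point falls midway between the lowest hypomethylated and the highest control tumour, and those values are equal in size by construction. Arrays have no read depth, and 6 of them limit the precision.

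Promoters of Cdx1 and Gata6 were not looked for, and none was matched for Hnf4g and Gata4. The start sites of the other 3 of the 7 genes were matched to RefSeq promoters on GRCm38.p6, with 2 start sites for Hnf4a. Their 250 upstream bases are shown because the study altered DNA methylation, which in mammals sits on CpG sites. Capitals mark each CpG, and each line reads 5′ to 3′ towards the start.
Cdx2, chr5:147307250-147307499, minus strand: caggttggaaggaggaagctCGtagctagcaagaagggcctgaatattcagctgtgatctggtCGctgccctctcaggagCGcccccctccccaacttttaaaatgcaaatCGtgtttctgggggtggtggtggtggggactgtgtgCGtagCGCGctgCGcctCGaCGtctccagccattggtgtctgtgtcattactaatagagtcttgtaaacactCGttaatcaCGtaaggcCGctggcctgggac
Hnf4a, upstream start, chr2:163506607-163506856, plus strand: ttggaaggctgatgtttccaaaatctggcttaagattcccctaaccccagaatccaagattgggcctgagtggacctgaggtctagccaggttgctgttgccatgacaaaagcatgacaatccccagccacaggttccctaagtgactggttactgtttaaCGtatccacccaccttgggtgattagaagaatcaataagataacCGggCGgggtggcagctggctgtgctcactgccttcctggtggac
Hnf4a, downstream start, chr2:163546905-163547154, plus strand: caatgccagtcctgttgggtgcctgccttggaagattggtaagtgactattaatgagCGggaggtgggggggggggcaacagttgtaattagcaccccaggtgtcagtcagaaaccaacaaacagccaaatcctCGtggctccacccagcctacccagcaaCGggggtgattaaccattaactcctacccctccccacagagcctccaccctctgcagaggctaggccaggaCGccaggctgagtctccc
Isx, chr8:74872924-74873173, plus strand: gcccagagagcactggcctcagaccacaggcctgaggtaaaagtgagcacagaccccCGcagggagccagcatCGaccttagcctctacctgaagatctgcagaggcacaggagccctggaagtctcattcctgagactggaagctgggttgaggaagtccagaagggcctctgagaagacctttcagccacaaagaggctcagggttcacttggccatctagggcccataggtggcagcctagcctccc

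The Cdx2 window holds 13 CpGs, more than 68.5% of the 32851 upstream windows of this length in the table, where the median is 6. Its ratio of observed to expected CpG is 0.69, against a median of 0.37 over all windows. Isx has 2 CpGs (ratio 0.09), and 18.8% of windows have fewer. The upstream and downstream Hnf4a starts have 3 and 4 CpGs (ratios 0.18 and 0.19) and lie 40298 bases apart. In the nomenclature of this gene they correspond to the P2 and P1 promoters, which give proteins with different amino ends. The gene's single probe set gives 1 value for both. The windows were searched on both strands for a CDX motif (TTTATG, in 10.8% of all windows), a GATA motif (AGATAA, in 9.99%) and an HNF4 motif (CAAAGTCCA, in 0.38%). The GATA motif was matched once, 52 bases before the upstream Hnf4a start, and the windows of Cdx2, Isx and the downstream Hnf4a start held none of the 3 motifs. A match describes letters in a window, not binding, and methylation of these sites was not measured here.

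**Figure D1:**
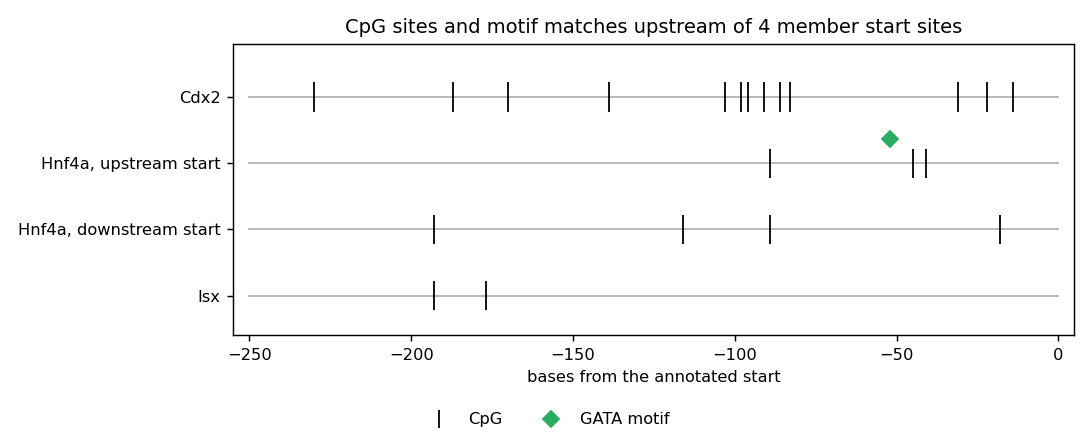
CpG sites (ticks) and the GATA motif match (diamond) in the 250 bases upstream of 4 start sites, by distance from the start in bases. Cdx2 has 13 CpGs, the Hnf4a windows 3 and 4, and Isx 2.

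Dnmt1, the altered gene, fell by 0.87 ± 0.06 (SE) on the log2 scale (limma, adjusted p = 3.13e-04), with centred values of -0.37, -0.48 and -0.42 in hypomethylated tumours and 0.44, 0.52 and 0.37 in control tumours. None of the 7 genes lies on chromosome 9 with Dnmt1. They lie on chromosomes 2, 3, 5, 8, 14 and, for Cdx1 and Gata6, 18. The strain background was mixed, and background alleles were not compared between the groups on any chromosome.

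In hypomethylated tumours 5 of the 7 genes were higher: Cdx2, Isx, Hnf4g, Cdx1 and Hnf4a, in order of size. The rises spanned 1.52-fold for Hnf4a to 11.2-fold for Cdx2, and Gata4 and Gata6 did not pass the test. A gene was called at an adjusted p under 0.05 in limma over all genes. In that test 10.7% of all genes were higher in hypomethylated tumours, 21.3% were lower and 32.0% passed in either direction. Cdx2 and Isx were among the 2.34% of genes that were called and at least 2-fold higher. The 7 genes' median difference was 0.75 on the log2 scale, against -0.01 over all genes. The groups did not overlap for 5 of the 7 genes, and for 46.4% of all genes. By size of increase among the 19938 genes, Cdx2 stood at rank 19, Isx at 51, Hnf4g at 633, Cdx1 at 739, Hnf4a at 991, Gata4 at 1948 and Gata6 at 13124. No member passed in the lower direction in limma, and none was lower at an unadjusted p under 0.05.

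**Figure D2:**
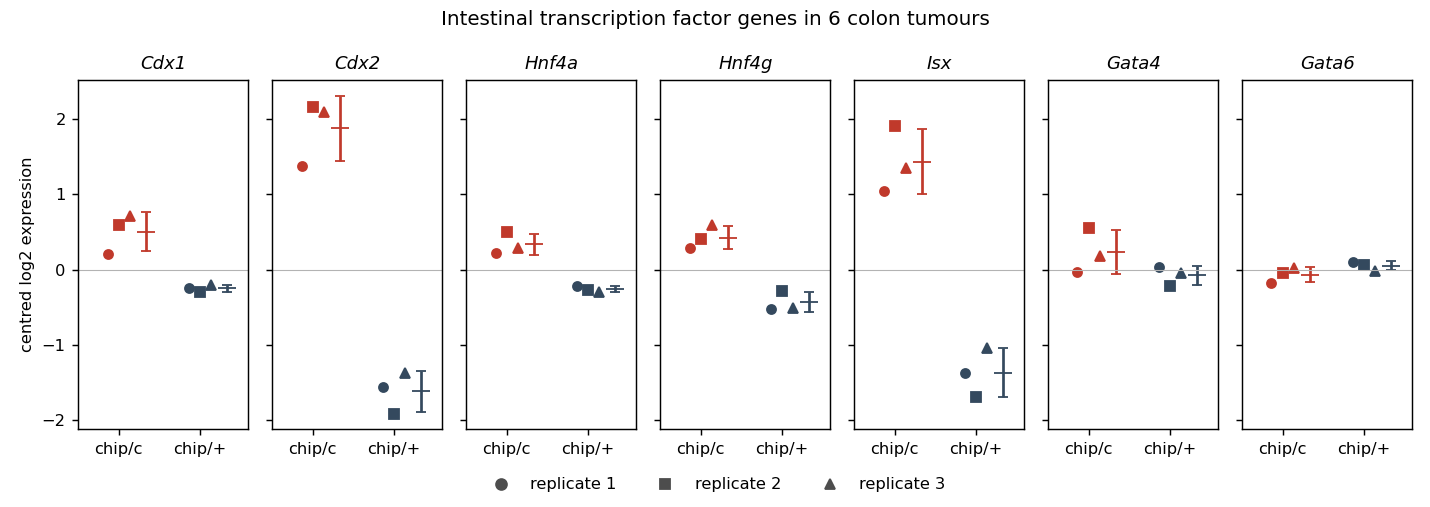
Centred log2 expression of the 7 genes in each tumour, hypomethylated (chip/c, red) left of control (chip/+, dark). Symbols are tumours and bars the mean ± SD of 3. Cdx2 and Isx are the most widely separated, and the groups overlap for Gata4 and Gata6.

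Cdx2 had centred log2 values of 1.38, 2.16 and 2.09 in the hypomethylated tumours and -1.56, -1.91 and -1.38 in the control tumours. The nearest tumours of the 2 groups were 2.75 apart, more than the whole range within the hypomethylated (0.78) or the control tumours (0.54). The gene rose by 3.49 ± 0.23 (SE; 95% interval 2.95 to 4.03; limma, adjusted p = 2.86e-04). An exact two-sided permutation test of this gene alone gave p = 0.1, the smallest that 3 against 3 tumours allow, and the same holds for each of the 5 genes that rose.

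Cdx1, its paralogue, had values of 0.21, 0.59 and 0.71 in hypomethylated tumours and of -0.24, -0.30 and -0.21 in control tumours. The groups did not overlap, and hypomethylated tumours covered a range of 0.50 against 0.09 in control tumours. Cdx1 rose by 0.75 ± 0.13 (SE; 95% interval 0.45 to 1.05; limma, adjusted p = 0.00481), or 1.68-fold. The 2 CDX genes were set against each other as Cdx2 minus Cdx1 in each tumour. This quantity averaged 1.37 ± 0.20 in hypomethylated tumours and -1.37 ± 0.23 in control tumours (SD, n = 3 each), a difference of 2.74 ± 0.17 (SE). The exact permutation test gave p = 0.1, its smallest value, and 0.15 after Benjamini-Hochberg adjustment over the 3 paralogue pairs compared.

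Isx followed Cdx2 in size. Its values were 1.04, 1.90 and 1.35 in the hypomethylated tumours, against -1.37, -1.69 and -1.04 in the control tumours. All 3 hypomethylated tumours were above all 3 control tumours, with a gap of 2.08. Isx rose by 2.80 ± 0.24 (SE, 95% interval 2.23 to 3.37, limma, adjusted p = 5.18e-04), or 6.96-fold. Unlike Cdx2, Isx is not among the genes kept by the filter on step size described below, which points to higher signal. Its fold is therefore less certain.

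Both HNF4 genes were higher by less than 2-fold. Hnf4g had values of 0.28, 0.41 and 0.59 in the hypomethylated tumours and of -0.52, -0.28 and -0.51 in the control tumours. It rose by 0.86 ± 0.10 (SE; 95% interval 0.62 to 1.10; limma, adjusted p = 0.00134), or 1.82-fold. Hnf4a had 0.22, 0.49 and 0.29 in the hypomethylated tumours, against -0.22, -0.27 and -0.30 in the control tumours. It rose by 0.60 ± 0.08 (SE; 95% interval 0.41 to 0.79; limma, adjusted p = 0.00210), or 1.52-fold. For neither gene did the groups overlap, and the gap between them was 0.56 for Hnf4g and 0.45 for Hnf4a. Hnf4g minus Hnf4a averaged 0.09 ± 0.19 in hypomethylated and -0.17 ± 0.14 in control tumours (SD, n = 3 each). The paralogues' changes thus differed by 0.26 ± 0.14 (SE; exact permutation p = 0.2, adjusted 0.2), and the groups overlapped. Without hypomethylated replicate 3 this difference was 0.16.

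Gata4 and Gata6 were not called. Gata4, unlike Gata6, is not among the genes kept by the step-size filter, so a low signal is possible for it. Gata4 had -0.03, 0.56 and 0.18 in the hypomethylated tumours and 0.03, -0.21 and -0.05 in the control tumours. Hypomethylated replicate 1 lay below control replicate 1, so the groups overlapped. Gata4 differed by 0.31 ± 0.15 (SE; 95% interval -0.04 to 0.66; limma, adjusted p = 0.161). Single tumours moved this value both ways: it was 0.44 without hypomethylated replicate 1, where it passed (adjusted p = 0.0432), and 0.15 without hypomethylated replicate 2 (adjusted p = 0.353). Gata6 had -0.17, -0.04 and 0.02 in the hypomethylated tumours and 0.10, 0.06 and -0.02 in the control tumours, again with overlap. It differed by -0.12 ± 0.07 (SE; 95% interval -0.28 to 0.05; limma, adjusted p = 0.262). This interval rests on the spread between these tumours and lies below each of the 5 rises. Gata4 minus Gata6 averaged 0.30 ± 0.26 in hypomethylated and -0.13 ± 0.13 in control tumours (SD, n = 3 each), a difference of 0.43 ± 0.17 (SE; exact permutation p = 0.1, adjusted 0.15). It was 0.28 without hypomethylated replicate 2, and without control replicate 2 the exact permutation p was 0.3.

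**Figure D3:**
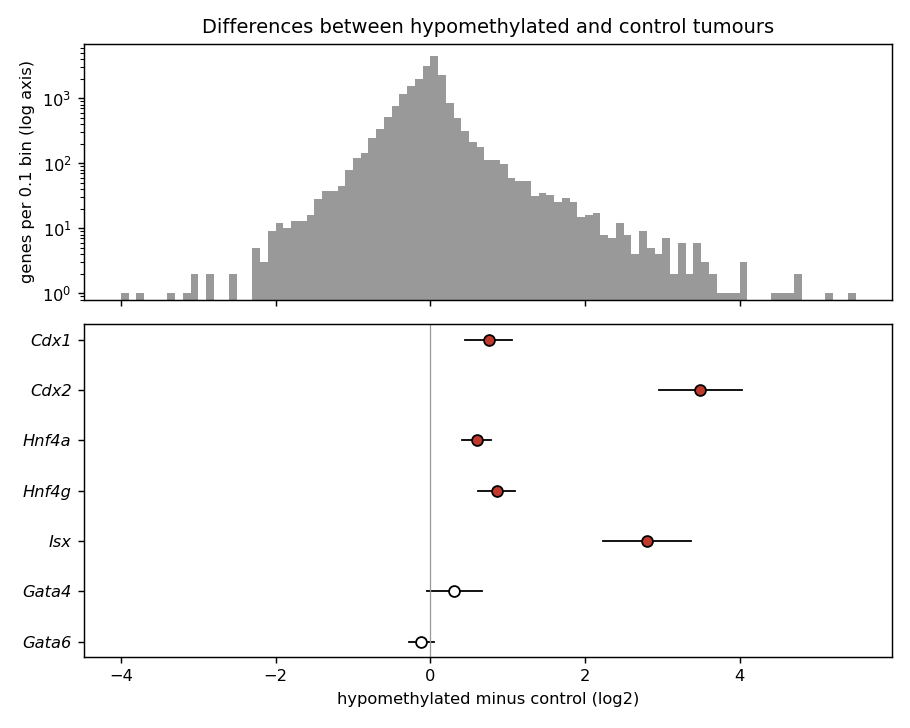
Hypomethylated minus control difference on the log2 scale: all 19938 genes as a histogram with a log count axis (top) and the 7 genes with 95% intervals (bottom; filled, passed the test). Cdx2 (3.49) and Isx (2.80) lie in the far right tail, and the intervals of Gata4 and Gata6 include 0.

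The 5 genes that rose ordered the hypomethylated tumours alike at one end. Hypomethylated replicate 1 was the lowest of its group for 5 of 5, with a mean of 0.63 over these genes, against 1.11 and 1.01 in hypomethylated replicates 2 and 3. Control replicates 1, 2 and 3 had means of -0.78, -0.89 and -0.69. Over all genes, hypomethylated replicate 1 correlated with replicates 2 and 3 of its group at 0.55 and 0.60, and those 2 correlated at 0.79. The share of all genes with this order was not counted. Replicate 1 of the hypomethylated tumours also stood apart in markers of other cells. Its mean over 11 fibroblast markers was -0.08, against -0.50 and -0.37 in replicates 2 and 3, and its mean over 9 immune cell markers was 0.26, against -0.53 and -0.34. Without this tumour Cdx2 differed by 3.74, the highest of its values when 1 tumour was left out.

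Markers of 5 kinds of cell were read beside these genes. In limma 62.5% of pan-epithelial, 72.7% of fibroblast, 50% of smooth muscle and 57.1% of endothelial markers passed in either direction, against 32.0% of all genes. Of 8 pan-epithelial markers 5 were higher and none lower in limma (1 lower at an unadjusted p under 0.05), with a median difference of 0.22, and 3 were higher without control replicate 1. Cldn7, Krt19, Cldn3 and Krt8, claudins and keratins of simple epithelium, rose by 0.52, 0.38, 0.34 and 0.26, where Krt8 lost its call without control replicate 1. Epcam differed by 0.06 (adjusted p = 0.453). The summed centred level of the 8 lay between 0.57 and 1.31 in hypomethylated tumours and between -0.78 and -0.61 in control tumours. Among 11 fibroblast markers 7 were lower, led by Col6a3 (-0.78), Pdgfrb (-1.22), Pdgfra (-0.89) and Fn1 (-0.47), and Fap was higher (0.33). Leaving out hypomethylated replicate 3 left 4 lower. The fibroblast sums ran from -5.46 to -0.88 in hypomethylated and from 0.92 to 4.64 in control tumours.

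Among 8 smooth muscle markers limma called 4 lower and none higher (none at an unadjusted p under 0.05), led by Kcnmb1 (-0.85), Tagln (-0.58), Actg2 (-0.66) and Acta2 (-0.93). The call of Acta2 was lost without hypomethylated replicate 2 or 3 or control replicate 2 or 3. Their sums ran from -2.62 to -0.83 in hypomethylated tumours and from 0.96 to 2.74 in control tumours. Of 7 endothelial markers 3 were lower (Emcn -0.91, Cdh5 -0.91, Kdr -0.38) and Tek was higher (0.55), with sums from -2.43 to 0.01 in hypomethylated and from 0.29 to 1.13 in control tumours. Kdr lost its call without hypomethylated replicate 2 or 3 or control replicate 2 or 3. Of 9 immune cell markers 2 were lower and none higher in limma, or 22.2%. Of all genes 32.0% passed in either direction and 21.3% were lower. At an unadjusted p under 0.05, 3 were lower and 1 higher. The macrophage genes C1qb and Adgre1 fell by 0.94 and 0.83. C1qa, of the same cells, differed by -0.65 (limma, adjusted p = 0.103) and Cd8a, of cytotoxic T cells, by 0.37 (adjusted p = 0.0841). The calls of C1qb and Adgre1 were lost when any single tumour other than hypomethylated replicate 1 was left out. Without that tumour 5 markers were lower, and without hypomethylated replicate 3 Cd8a passed as higher. The immune sums overlapped, from -4.77 to 2.38 in hypomethylated and from -0.60 to 2.31 in control tumours. In whole tumours, more cells of a type and more RNA per cell cannot be told apart.

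When the mean of the 8 pan-epithelial markers was subtracted on each array, a step chosen after seeing the data, Cdx2 differed by 3.30, Isx by 2.61, Hnf4g by 0.67, Cdx1 by 0.56 and Hnf4a by 0.41. These 5 genes passed again as higher (largest adjusted p = 0.00759, for Cdx1). Gata4 differed by 0.12 (adjusted p = 0.440), and Gata6 passed as lower, at -0.31 (adjusted p = 0.0112). This scaling moved the median difference of all genes to -0.20, so lower calls became more common in general: 1285 genes were higher and 9619 lower. The smooth muscle markers that were lower in the same tumours bear on a gene that smooth muscle also expresses, and their part in the Gata6 value was not tested.

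Genes known to be activated by CDX1 or CDX2 in the intestine were mostly higher. Of 15 measured, 12 rose and none was lower in limma (none at an unadjusted p under 0.05), with a median difference of 1.54. The share higher was 80%, against 10.7% of all genes. Car1, a carbonic anhydrase of the colon surface, rose by 1.80 ± 0.07 (SE; adjusted p = 5.82e-05). Vdr, the vitamin D receptor, rose by 1.76 ± 0.10, Heph, the ferroxidase of iron export, by 2.05 ± 0.13, and Gucy2c, the guanylin receptor, by 1.26 ± 0.11 (SE). The brush border protease gene Mep1a rose by 3.47 and Krt20, a keratin of surface cells, by 3.52. Muc2, the main mucin of goblet cells, rose by 1.41, a call lost without hypomethylated replicate 2 or 3. Alpi, the intestinal alkaline phosphatase, rose by 1.53 (adjusted p = 0.0491), which held among the fits without 1 tumour only when hypomethylated replicate 1 was left out.

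The 3 CDX targets that did not pass were Slc15a1, Sis and Lct. Slc15a1, the peptide transporter PEPT1, had 0.61, 0.82 and 0.04 in hypomethylated tumours, against -1.84, -2.99 and -0.04 in control tumours. It differed by 2.11 ± 0.67 (SE; limma, adjusted p = 0.0508), and it passed under 6 alternatives, among them quantile normalization and leaving out control replicate 3, the control tumour nearest to the hypomethylated ones. Sis and Lct, the sucrase and lactase of the small intestine, differed by 0.08 ± 0.06 and 0.10 ± 0.10 (SE) and did not pass. All 6 values of Sis lay between -0.06 and 0.09.

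**Figure D4:**
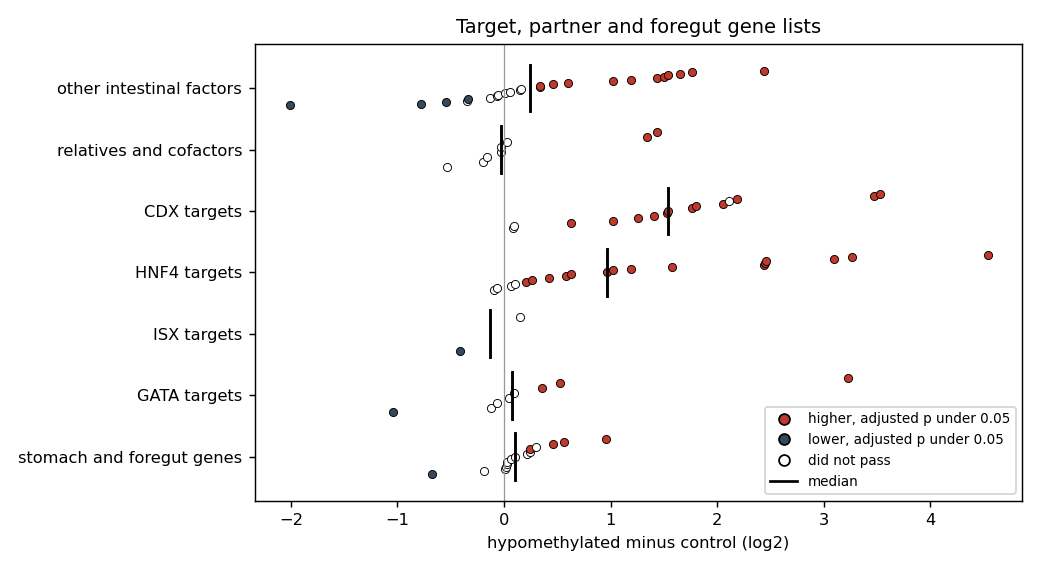
Hypomethylated minus control difference (log2) of each measured gene of 7 lists; red and dark points passed as higher and lower, open points did not, and vertical bars are list medians. The medians are 1.54 for CDX targets and 0.96 for HNF4 targets, and between -0.13 and 0.25 for the other 5 lists.

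HNF4 targets showed a split of the same kind. Of 19 measured, 15 rose and none was lower in limma (none at an unadjusted p under 0.05), with a median of 0.96. Without control replicate 1, 11 were higher, and with the replicate block 13. The share higher was 78.9%, against 10.7% of all genes. Cldn15, a claudin of intestinal tight junctions, rose by 2.44 ± 0.12, Myo1a, a brush border myosin, by 1.58 ± 0.12, Apob, the structural protein of chylomicrons, by 3.26 ± 0.28 and Vil1, the microvillus protein villin, by 1.02 ± 0.09 (SE). The microvillus cadherin gene Cdhr2 rose by 3.09 and the fatty acid binding protein gene Fabp2 by 4.54. The 4 that did not pass were Mttp, which loads lipid onto APOB (-0.10), Fabp1 (-0.07), Apoc3 (0.10) and Apoa4 (0.06). The filter on step size described below, which points to higher signal, kept 9 CDX targets and 10 HNF4 targets. All of those passed as higher. The targets of both lists that did not pass lay outside this filter, and whether low signal hid a change in them was not tested. Under the epithelial marker scaling 12 of the 19 were higher and 2, Mttp and Fabp1, were lower.

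Of the 2 genes known to be repressed by ISX, Scarb1, a receptor for lipids and carotenoids, fell by 0.41 ± 0.07 (SE; limma, adjusted p = 0.00601). Its values were -0.24, -0.26 and -0.11 in hypomethylated tumours, against 0.11, 0.30 and 0.21 in control tumours, with no overlap. Bco1, the enzyme that cleaves beta-carotene, had -0.01, 0.18 and 0.22 in hypomethylated and -0.01, 0.01 and -0.07 in control tumours. It differed by 0.15 ± 0.07 (SE; adjusted p = 0.172) and passed as higher, at 0.22, without hypomethylated replicate 1. Bco1 is not among the genes kept by the filter on step size, so a low signal is possible for it.

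Among 8 genes known to be controlled by GATA4 or GATA6 in gut epithelium, 3 were higher and 1 lower, with a median of 0.07. The share called was 50%, against 32.0% of all genes. Slc51b and Slc51a, the subunits of the basolateral bile acid exporter that GATA4 represses in proximal small intestine, rose by 3.22 ± 0.12 and 0.52 ± 0.11 (SE). Npc1l1, the cholesterol uptake transporter, rose by 0.36 ± 0.09, a call lost without hypomethylated replicate 1 or 2 or control replicate 1 or 2. Bmp4, a differentiation signal that GATA6 holds back in intestinal adenoma cells, fell by 1.04 ± 0.15 (SE; limma, adjusted p = 0.00305). Fibroblasts also make Bmp4, and the fibroblast markers given above were lower in the same tumours; their part in this value was not tested. Lgr5, a stem cell receptor, and the ileal bile acid genes Fabp6 and Slc10a2 differed by -0.06, 0.05 and -0.12 and did not pass. The filter on step size described below kept 2 of the 8 genes. Whether low signal hid a change in the others was not tested.

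Intestine that loses CDX2 takes on stomach and foregut genes, so 15 of these were measured. In limma 4 were higher and 1 lower, with a median of 0.10. The share called was 33.3%, close to the 32.0% of all genes. By direction the list leaned the other way, since 10.7% of all genes were higher and 21.3% lower. Gkn3, Cldn18, Anxa10 and Krt13 rose by 0.96, 0.46, 0.57 and 0.25, and Ctse, the gastric protease cathepsin E, fell by 0.68. Gkn3 is a gastrokine and Cldn18 a claudin of stomach. Anxa10 lost its call without hypomethylated replicate 3 or control replicate 1 or 2, and Krt13 without those or hypomethylated replicate 2. Only 3 of the 15 passed without hypomethylated replicate 3, control replicate 1 or control replicate 2. Sox2, the transcription factor of foregut, had 0.23, -0.23 and 0.12 in hypomethylated tumours, against -0.12, -0.24 and 0.16 in control tumours, and differed by 0.10 (adjusted p = 0.656). The stomach mucins Muc5ac and Muc6 and the trefoil peptides Tff1 and Tff2 differed by 0.01 to 0.07 and did not pass. The filter on step size described below kept 5 of the 15 genes. Whether low signal hid a change in the others was not tested.

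Other transcription factors of the intestinal epithelium moved in both directions. Of 24 measured, 11 were higher and 4 lower, with a median of 0.25. The share called was 62.5%, against 32.0% of all genes. The lists share genes and are not separate evidence. Vdr and Klf4 are also among the CDX targets and Creb3l3 among the HNF4 targets. Vil1 is in both target lists, and Lct is in the CDX and GATA lists. The bile acid receptor gene Nr1h4 rose by 2.43 ± 0.17, the vitamin D receptor gene Vdr by the 1.76 given above and the lipid-sensing receptor gene Pparg by 1.44 ± 0.12 (SE). Creb3l3, a regulator of lipid genes, rose by 1.19, Nr5a2, a nuclear receptor of crypts, by 1.66, Klf4, a goblet cell factor, by 1.54, and Atoh1, the switch to secretory fate, by 1.03. The cut homeobox gene Onecut2 fell by 2.01 ± 0.20, with values of -1.08, -0.71 and -0.86 in hypomethylated and of 1.15, 1.54 and 0.71 in control tumours. Foxa2, a pioneer factor of endoderm, fell by 0.78, Hes1, a Notch target, by 0.54, and Grhl2, an epithelial barrier factor, by 0.33. Sox9 and Ehf, factors of crypt and gut epithelium, differed by -0.06 and 0.01 and did not pass.

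Of 8 relatives and cofactors of the CDX and GATA proteins, 2 were higher and none lower in limma, with 1 lower at an unadjusted p under 0.05. That is 25% called, all higher, against 32.0% of all genes (10.7% higher and 21.3% lower). Pdx1, a homeobox factor of duodenum and pancreas, rose by 1.34 ± 0.15 (SE; adjusted p = 0.00118), with values of 0.92, 0.99 and 0.43 in hypomethylated and -0.43, -0.65 and -0.60 in control tumours. Gata3 rose by 1.43 ± 0.21 (SE; adjusted p = 0.00277). Its values were 1.28, 0.50 and 0.58 in hypomethylated tumours, against -0.61, -0.84 and -0.50 in control tumours. Neither Pdx1 nor Gata3 is among the genes kept by the filter on step size described below. Their folds are therefore less certain. Lymphocytes make Gata3, and the T cell genes Cd3e and Cd3d differed by -0.12 and 0.06. Cd3e was highest, at 0.49, in the tumour with the highest Gata3, hypomethylated replicate 1. In hypomethylated replicates 2 and 3 Cd3e was -0.35 and -0.23, against -0.12, 0.12 and 0.28 in control tumours. The part of lymphocytes in the Gata3 value was not tested. Gata2, a factor of blood and endothelial cells, differed by -0.53 (adjusted p = 0.0669) and passed without control replicate 2. Zfpm1, the GATA partner FOG1, Cdx4 and Gata5 differed by -0.19, -0.03 and -0.16 and did not pass.

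**Figure D5:**
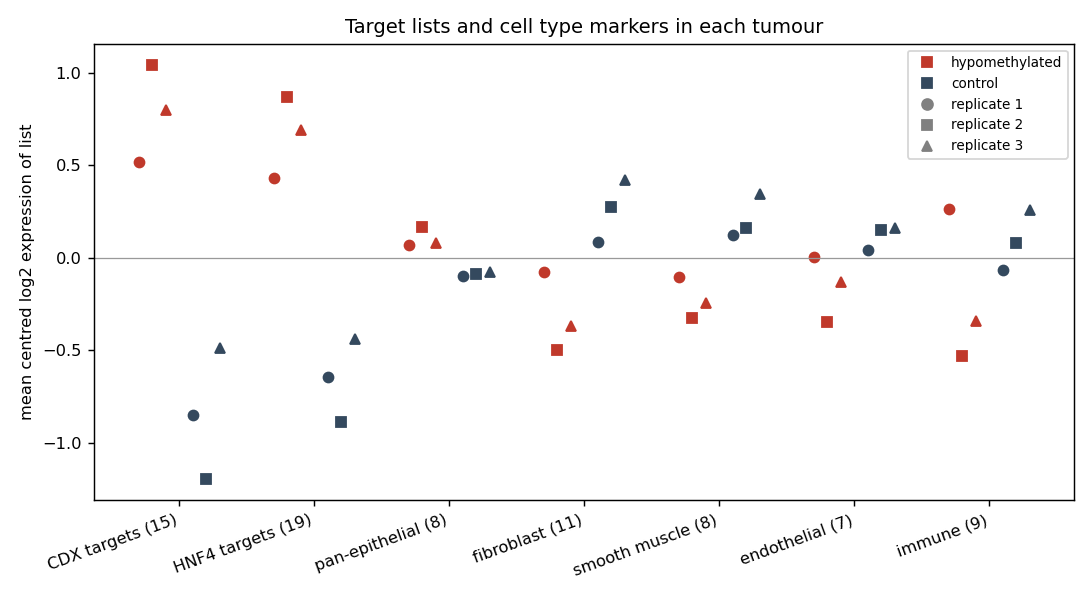
Mean centred log2 expression of 7 gene lists in each tumour, hypomethylated (red) left of control (dark), with the number of genes in brackets and symbols for replicates. The CDX and HNF4 target lists separate the groups, and hypomethylated replicate 1 (circle) has the lowest target means and the highest fibroblast and immune means of its group.

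For each gene that rose, the named genes closest to it were those with the smallest root mean square difference over the 6 tumours, given as a description. Closest to Cdx2 were Mep1b, the beta chain of the protease meprin (0.18), Apob (0.19) and the sulfate transporter gene Slc13a1 (0.28), which rose by 3.46, 3.26 and 3.05. Closest to Isx were the transporter genes Slc16a5 (0.17) and Slc9a2 (0.18), of monocarboxylates and of sodium and protons, and Nlrp9b (0.21), a gene of an intracellular sensor. They rose by 2.67, 2.95 and 2.98. Closest to Hnf4a were Msmo1, an enzyme of cholesterol synthesis (0.02), Mfsd13a (0.03) and the epithelial repressor gene Ovol1 (0.04). Closest to Hnf4g were Sh2d4a (0.06), the ubiquitin ligase gene Trim25 (0.08) and the heparan sulfate enzyme gene Hs3st1 (0.08). Closest to Cdx1 were Slc18b1 (0.05), the clathrin adaptor gene Ap1s3 (0.05) and Tnfrsf11a, the receptor RANK (0.06). With 6 tumours in 2 separated groups, nearness mostly reflects a like difference between the groups.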

How the data were processed

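The authors deposited 1 table of array values, 28856 probe sets by 6 arrays, taken as log2; no label states the base. Array type MoGene-1_0-st-v1 and biotin labelling are stated per the labels' protocols and descriptions; normalization is not given in the sources used here. In 100% of rows the median was within 1e-06 of 0. Probe sets with 1 gene symbol (21789; 1621 had several, 5446 none) were averaged into 19938 genes, 19856 matched by Entrez number to RefSeq (GRCm38.p6). No low-value filter could be set on centred values. limma 3.58.1 in R 4.3.3 (lmFit, eBayes without trend, 3.02 prior degrees of freedom) compared all 6 tumours, two-sided, Benjamini-Hochberg over all genes. The fit was checked on simulated data.

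Members, lists and tests were chosen with earlier results of these data known. The naming rule took the 7 genes, Dnmt1 and Apc, the 4 smallest p of each list, members called against their list and the 3 closest profiles per gene; other names were chosen after their values were seen. Some genes of the lists are not reported here. Apc differed by -0.23 (adjusted p = 0.115). Same-numbered tumours did not deviate together (correlations -0.29, -0.31 and -0.22), so the titles' numbers were not taken as pairs. Alternatives were quantile normalization, array median centring, the replicate block, the description number as a random block, array weights, robust eBayes, genes with 1 probe set, the median of probe sets, a filter on the values' step size (which points to higher signal before centring), other thresholds, leaving out each tumour and, chosen after seeing the data, epithelial marker scaling.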

Additional observations from a re-analysis of the deposited data

How the results depend on the processing

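Cdx1, Cdx2, Hnf4a, Hnf4g and Isx kept their direction and passed under each alternative that could include them; Isx and Gata4 are not among the step-filtered genes. Over these alternatives Cdx2 ran from 2.93 to 3.74, Isx from 2.40 to 2.99, Hnf4g from 0.67 to 0.96, Cdx1 from 0.56 to 0.90 and Hnf4a from 0.41 to 0.66, with the largest adjusted p at 0.0208 (Cdx1). Between 5 and 6 members passed without 1 tumour. With the replicate block 4257 genes were called, against 6380 without it, and 5 members, 3 pan-epithelial and 0 immune markers. With the description number as a random block 7941 genes were called, at a fitted correlation within numbers of -0.17. This block cannot separate mouse from genotype, because all 3 hypomethylated tumours share 1 number. Called genes numbered 3511 at an adjusted p under 0.01 and 10904 with epithelial marker scaling, where 11.8% of called genes were higher, against 33.3% with the values as deposited; without 1 tumour they ran from 4199 (without control replicate 1) to 6593. Relatives and cofactors had 4 calls with array weights, 1 with the step filter and 7 with epithelial scaling, under which smooth muscle markers had 7. The step filter kept 3 of the relatives and cofactors, without Pdx1 and Gata3, and its 1 call was Gata2, as lower. GATA targets had 1 and foregut genes 3 with the step filter, which tests fewer genes and moved the median of all genes to -0.12. Foregut genes had 8 with array weights and 3 at 0.01, pan-epithelial markers 3 and fibroblast markers 5 at 0.01. Immune markers had 1 with quantile normalization and with median centring, 0 with robust eBayes and 0 at 0.01; at an unadjusted p under 0.05 in limma, 3 and 4 of the 9 passed there, and 2 with the replicate block. Without 1 tumour, calls ran from 2 to 3 for relatives, 1 to 2 for ISX targets, 3 to 4 for GATA targets, 3 to 7 for foregut genes, 3 to 5 for pan-epithelial, 5 to 11 for fibroblast and 0 to 5 for immune markers. For CDX targets they ran from 10 to 12 and for HNF4 targets from 11 to 15. Where no construction is named, the cause was not tested. The 3 paralogue differences kept their sign with quantile normalization and without each tumour. Centring and the median of probe sets cannot move them, and the other alternatives were not run for them.

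The number of mice per group is unknown and levels are not kept. No background signal was used, so folds of dim genes are uncertain.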
